A study of Mus musculus with 30 samples.

Results

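Embryoid bodies grown for 4 days from the wild type line C129 were compared with those grown for the same time from the wild type line Pali. The comparison takes 4 of the 30 libraries, 2 per line, and 19686 autosomal genes of the 20563 gene symbols measured, 15092 of which were high enough to test. The study followed 5 mouse lines, namely the wild types C129 and Pali, a Pali1-/- knockout, a Pali1-/-, Pali2-/- double knockout and an Aebp2gt/gt gene trap, from day 0 through day 4 to day 8 of differentiation. Both lines compared here have the genotype wild type and carry no named allele. Stem cells were kept on gelatin with LIF, the cytokine that holds mouse embryonic stem cells in self-renewal, and were moved to non-adherent plates without LIF to form embryoid bodies. No source used here gives the strain, clone or passage of either line. The libraries are biological duplicates, and nothing says that they came from separate clones, so p-values measure the spread between duplicate cultures, and strain, clone and culture history cannot be told apart.

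Embryoid bodies are aggregates in which stem cells leave the naive state, pass through an epiblast-like primed state and then begin to form the germ layers. Naive cells rely on factors such as Klf4, Klf2 and Zfp42, primed cells on Fgf5, Otx2 and the Nodal and FGF pathways, while Pou5f1 and Sox2 are used by both. Lines of separate origin are known to differ in the pace of this course, in imprinted genes and in chromosome content.

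RNA was measured as normalised counts per gene in libraries depleted of ribosomal RNA. Values of the 4 libraries summed to between 16406653 and 17501376 normalised counts, from an estimated 13198297 to 18102787 reads. The 2 duplicates correlated across genes at 0.9503 in C129 and 0.9556 in Pali wild type (Pearson, log2 scale), a description in which genes are not independent. Differences are log2(value + 4) in C129 minus that in Pali wild type, so they understate the change of low genes, and a gene is called at an adjusted p under 0.05 in limma fitted to all 30 libraries. In bulk RNA, fewer cells of a type and less RNA per cell cannot be told apart.

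Markers of stem cells and of the primed epiblast were high in both lines. The 8 markers of undifferentiated stem cells summed to 57168 and 46646 normalised counts in C129 and to 43270 and 41957 in Pali wild type. Fgf5, a growth factor of the primed epiblast, had 1739 and 1635 normalised counts in C129 and 2752 and 3140 in Pali wild type, a difference of -0.80 that was not called (limma, adjusted p = 0.332). The stem cell sums of the lines lay close together, and Fgf5 was plainly present in all 4 libraries. The 4 markers of visceral endoderm summed to 22.2 and 25.2 in C129 and to 16.3 and 348 in Pali wild type, where replicate 2 alone was high. The 4 markers of endoderm summed to 48.1 and 263 in C129 and to 2.74 and 126 in Pali wild type, with replicate 2 the higher library in each line. These endoderm genes were low and uneven between duplicates. The 4 markers of neuroectoderm summed to 2456 and 3796 in C129 and to 4452 and 5484 in Pali wild type. Nes made up most of these sums. Of streak genes, Eomes had 304 and 381 in C129 and 187 and 180 in Pali wild type and was not called. T, the factor of the primitive streak, had 4.93 and 57.8 in C129 and was listed at 0 in both libraries of Pali wild type, and it was not called. Sox1, a factor of neural precursors, had 172 and 317 in C129 and 866 and 1314 in Pali wild type, a difference of -2.17 short of the threshold (adjusted p = 0.0537). Among fibroblast markers, which can enter through feeder cells, the 5 genes summed to between 103 and 179 in C129 and 173 and 179 in Pali wild type.

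Of the 15092 autosomal genes tested, 2407 were called, which is 15.9% of them. Of these, 1262 (8.36%) were higher in C129 and 1145 (7.59%) were lower, and the median difference over all genes was near 0 at -0.003. Without C129 replicate 1 the calls fell to 1098, and without Pali wild type replicate 1 to 1385. Fitted on the 4 libraries alone, with 2 residual degrees of freedom, no gene passed adjustment, and 3307 had an unadjusted p under 0.05. The calls therefore borrow their estimate of spread from the other libraries.

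Undifferentiated cells of the same lines differed in 3195 genes (21.2%) and day 8 embryoid bodies in 2602 (17.2%). Those comparisons use other libraries than day 4. Of the day 4 calls, 929 were called in the same direction at day 0, which is 38.6% of the day 4 calls and 29.1% of the day 0 calls, and 109 were called in the opposite direction. At day 8, 383 were called the same way (15.9% of the day 4 calls, 14.7% of the day 8 calls) and 295 the opposite way. A total of 248 genes were called with 1 sign at all 3 days, 107 higher and 141 lower. The difference at day 4 itself differed from that at day 0 for 1365 genes (9.04%) and from that at day 8 for 2616 (17.3%).

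**Figure D1:**
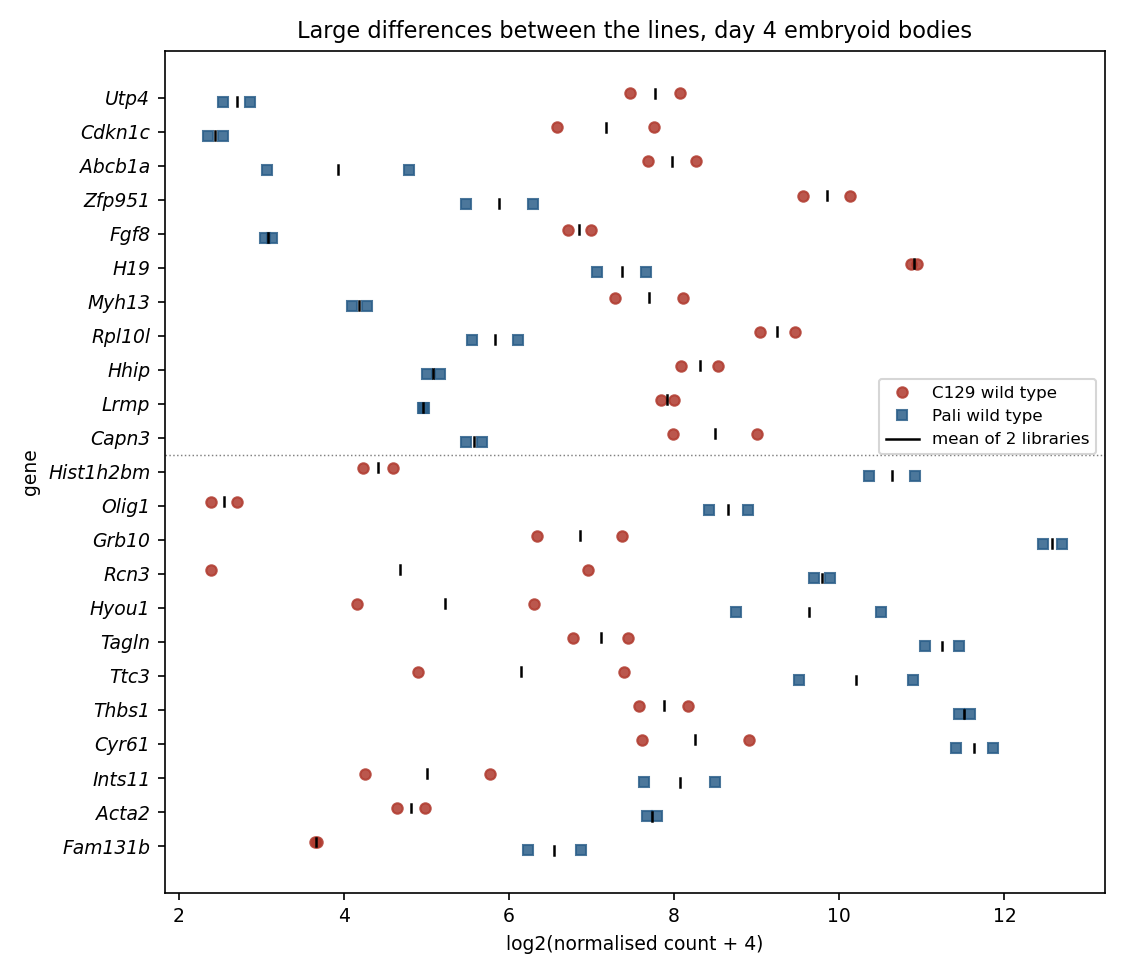
Values of 23 genes with large differences, on a log2(normalised count + 4) axis, with red circles for the C129 libraries, blue squares for the Pali wild type libraries and a tick at the mean of the 2 libraries. Genes above the dotted line were higher in C129 and genes below it lower, and no pair of groups overlaps, which the choice of genes required. The 2 C129 values of Rcn3 (1.23 and 121) lie farther apart than the duplicates of any other gene drawn.

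Some core and general pluripotency genes were higher in C129 and others did not pass the test. Of 19 tested, 7 were higher, none was lower and 12 were not called. The 7 were Pou5f1, Dppa4, Dppa2, Fgf4, Mycn, Trp53 and Jarid2, and Jarid2 is also a member of the PRC2 list below. The share called was 36.8%, beside 15.9% of all autosomal genes, and the median difference was 0.39 beside -0.003. Pou5f1 (chromosome 17, 35506018 to 35510772, plus strand, GRCm38), the central factor of pluripotency, had 21141 and 17101 normalised counts in C129 and 10339 and 9482 in Pali wild type. All C129 values lay above all Pali wild type values, with a difference of 0.94 (SE 0.25, limma, adjusted p = 0.0166). At day 0 the same gene did not differ detectably (0.07), and at day 8 it was lower in C129 (-1.65, adjusted p = 0.000218). Mycn, a Myc family factor of self-renewal, had 5294 and 4641 against 3187 and 3246 (0.62, adjusted p = 0.000342). Dppa2, an early embryo chromatin factor, had 1940 and 1173 against 727 and 741 (1.04, adjusted p = 0.00614). Among those not called, Nanog had 6662 and 6976 in C129 and 6245 and 7624 in Pali wild type, so the groups overlapped (-0.02, adjusted p = 0.988), Sox2 differed by 0.29 (adjusted p = 0.0603) and Dppa5a by -0.39 (adjusted p = 0.0983). The higher calls moved with single libraries, to 1 without C129 replicate 1 and to 4 without Pali wild type replicate 2, and without C129 replicate 1 the adjusted p rose to 0.151 for Pou5f1 and to 0.133 for Dppa2. Pou5f1 also missed the threshold without either Pali wild type library (adjusted p = 0.0597 and 0.0907).

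Naive genes were split. Of 20 tested, 5 were higher and 1 lower (30% called, beside 15.9% of all autosomal genes), with a median of -0.005. Klf2, a naive transcription factor, had 2682 and 2009 against 1277 and 1072 (0.99, adjusted p = 0.00284, or 0.0603 without C129 replicate 1). Dppa3, also called Stella, which protects methylated DNA in the early embryo, went the other way. Dppa3 had 107 and 207 in C129 and 1246 and 852 in Pali wild type, a difference of -2.75 (SE 0.49, limma, adjusted p = 0.00109). It was lower in C129 at day 0 (-2.39) and at day 8 (-2.61) as well. Of 15 primed epiblast genes, 6 were higher and none lower (40% called), with a median of 0.43. They were Dnmt3a, Fgf8, Foxd3, Nodal, Sfrp2 and Fst, and all but Foxd3 are counted in other lists below as well. The markers Fgf5 (-0.80), Otx2 (0.57), Pou3f1 (0.001) and Dnmt3b (0.43) were not called. Without C129 replicate 1 the higher naive genes numbered 1 and the higher primed genes 3, without C129 replicate 2 or Pali wild type replicate 2 the naive genes numbered 2, and without Pali wild type replicate 1 the primed genes numbered 3.

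A few ligands and feedback genes of Nodal and FGF signalling were higher in C129, and most members of both lists were not called. Nodal is a TGF-beta ligand that keeps the epiblast and patterns the streak, and Lefty2 is its secreted inhibitor and target. Lefty2 (chromosome 1, 180893108 to 180899103, plus strand) had 7685 and 5607 normalised counts in C129 and 1312 and 2501 in Pali wild type (1.85, SE 0.36, limma, adjusted p = 0.00179). Nodal itself had 2701 and 1947 against 814 and 1205 (1.21, adjusted p = 0.00272), but missed the threshold without C129 replicate 1 (adjusted p = 0.056) or Pali wild type replicate 1 (0.0538). The C129 values of both genes lay above those of Pali wild type. At day 8 both were lower in C129, by -2.60 for Lefty2 and -1.53 for Nodal. Of 20 Nodal pathway genes tested, 3 were higher and 2 lower (25% called, beside 15.9% of all autosomal genes), with a median of 0.52, and the lower members were Furin, a protease that processes Nodal, and the receptor Acvr2b (adjusted p = 0.0249, or 0.127, 0.0761 and 0.382 without C129 replicate 1, C129 replicate 2 and Pali wild type replicate 1). Of 24 FGF and ERK feedback genes, 4 were higher and 1 lower (20.8% called), 10 had a positive difference and the median was -0.05. The lower gene was Etv5, an ETS factor induced by FGF signalling (-0.45, adjusted p = 0.00188). Fgf5 (-0.80), Spry2 (-0.61) and Dusp6 (-0.16) were not called. Fgf8, an FGF ligand of the primed epiblast and streak, had 123 and 101 in C129 and 4.78 and 4.24 in Pali wild type (3.76, SE 0.55, adjusted p = 0.000192). Both lines listed Fgf8 at 0 at day 0. Spry4, a feedback inhibitor of FGF receptors, had 1899 and 1275 against 459 and 728 (1.42, adjusted p = 0.00233, or 0.051 without C129 replicate 1). The higher FGF calls numbered 1 without C129 replicate 1 and 2 without Pali wild type replicate 1, and without the latter the higher Nodal pathway calls numbered 1.

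The Wnt list and the BMP and Id list had 14.3% and 16% of their genes called, near the 15.9% of all autosomal genes. Wnt8a, a ligand made in the early streak, had 137 and 153 in C129 and 29.9 and 22.0 in Pali wild type (2.33, adjusted p = 0.00483), while Wnt4 had 36.9 and 44.0 against 101 and 111 (-1.31, adjusted p = 0.00146). In the Wnt list 4 of 35 genes were higher and 1 lower, and in the BMP and Id list 4 of 25 were higher and none lower. Id4, a repressor of basic helix-loop-helix factors, had 334 and 229 against 59.8 and 109 (1.73, adjusted p = 0.0018). No member was called among 18 Notch pathway genes, 18 Hox and Cdx genes or 15 definitive endoderm genes. In the primitive streak list only Fgf8 was called, 1 of 25. The higher calls without C129 replicate 1 numbered 1 in the Wnt list and 2 in the BMP and Id list, which also had 2 without C129 replicate 2 or Pali wild type replicate 1.

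Of the genes of de novo DNA methylation, Dnmt3a and Dnmt3l were higher in C129 and Dnmt3b was not called. Dnmt3l (chromosome 10, 78041947 to 78063622, plus strand), the cofactor of the de novo methyltransferases in germ and stem cells, had 3320 and 2099 normalised counts in C129 and 719 and 661 in Pali wild type (1.93, SE 0.24, limma, adjusted p = 5.44e-05). The excess was of like size at day 0 (2.14) and turned at day 8 (-2.33). Dnmt3a, a methyltransferase, had 6171 and 5543 against 2985 and 3177 (0.92, adjusted p = 0.000754). Dnmt3b, the other de novo methyltransferase, had 35045 and 44276 against 31149 and 27461 (0.43, adjusted p = 0.498). Tdg, the glycosylase that removes oxidised methylcytosine, had 310 and 342 in C129 and 892 and 962 in Pali wild type (-1.50, adjusted p = 0.000348) and was lower at each day. In the list of 15 DNA methylation and demethylation genes, 2 were higher and 1 lower, and the median was 0. That is 20% called, beside 15.9% of all autosomal genes. Polycomb complex PRC2 is the enzyme that places the silencing mark on histone H3. Of 13 of its subunits 15.4% were called, near the 15.9% of all autosomal genes. Jarid2 and Epop were higher and none was lower. Neither passed without C129 replicate 1 (adjusted p = 0.0969 and 0.411) or without Pali wild type replicate 2 (0.144 and 0.0757), Jarid2 also failed without C129 replicate 2 (0.076), and Epop without Pali wild type replicate 1 (0.142). Suz12 (-0.05) and Eed (-0.02) were not called, and Ezh2 was listed at 0 in all 4 libraries, which can be a failed estimate. Lcor, Lcorl and Aebp2, the loci that the mutant lines of the study target, were not called between these wild type lines, with differences of -0.48, -0.12 and -0.57.

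**Figure D2:**
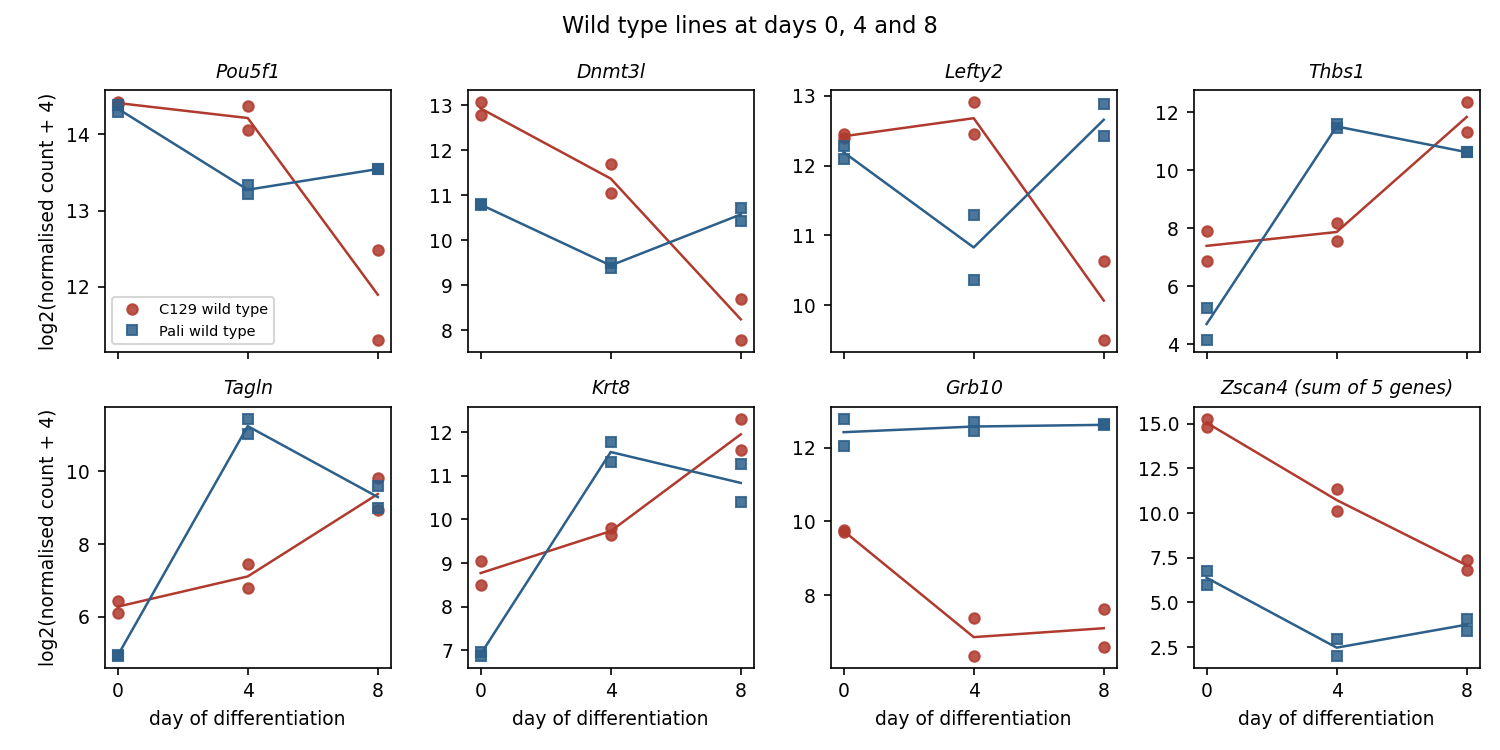
Values of 7 genes and of the sum of 5 Zscan4 genes at days 0, 4 and 8, on a log2(normalised count + 4) axis, with red circles for C129, blue squares for Pali wild type and lines through the means of the 2 libraries. Pou5f1, Dnmt3l and Lefty2 were higher in C129 at day 4 and lower at day 8, Thbs1, Tagln and Krt8 were lower in C129 at day 4 and not at the other days, and Grb10 was lower at each day.

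Several genes of contractile cells, all 4 of the lower members of the fibroblast list, were lower in C129, and so were Thbs1, Cyr61 and Krt8. Tagln (chromosome 9, 45929619 to 45936058, minus strand), an actin-binding protein of smooth muscle, had 106 and 170 normalised counts in C129 and 2098 and 2804 in Pali wild type (-4.14, SE 0.65, limma, adjusted p = 0.000348). Thbs1 (chromosome 2, 118111876 to 118127133, plus strand), the secreted matrix protein thrombospondin, had 187 and 284 against 2782 and 3062 (-3.64, SE 0.66, adjusted p = 0.00117). Cyr61, a matrix protein and target of the YAP factors, had 191 and 477 against 2733 and 3702 (-3.38, adjusted p = 6.38e-05). In all of these each Pali wild type library was several times above each C129 library. Acta2, smooth muscle actin, had 20.9 and 27.7 against 200.3 and 218 (-2.92, adjusted p = 0.00158). Myl9, a myosin light chain, had 137 and 197 against 719 and 756 (-2.14, adjusted p = 0.000139). Cnn1, calponin, was listed at 0 in both C129 libraries and had 7.25 and 9.88 in Pali wild type. Krt8, a keratin of simple epithelia, had 802 and 894 in C129 and 2541 and 3513 in Pali wild type (-1.81, adjusted p = 0.00417).

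None of Tagln, Thbs1, Cyr61, Acta2, Myl9 and Krt8 was called lower at day 0. At that day Thbs1 was higher in C129 (2.69, adjusted p = 0.00691), with 115 and 236 normalised counts against 34.0 and 13.9, and Krt8 was higher too (1.86, adjusted p = 0.00246). At day 8 none of Tagln, Thbs1, Cyr61, Acta2, Myl9 and Krt8 was called. The day 4 difference minus that at day 0 was -6.33 for Thbs1 (interaction term, adjusted p = 0.000653) and -5.48 for Tagln (adjusted p = 0.0015). In the other lines at day 4, Tagln had 942 and 940 in the Pali1 knockout, 2666 and 3165 in the double knockout and 452 and 417 in the Aebp2 gene trap. The Pali1 knockout and the gene trap lay between the wild types, and the double knockout reached above Pali wild type. In the fibroblast list, which holds Tagln, Acta2, Myl9 and Cnn1, 4 of 22 genes were lower, these same 4, and 1, the collagen Col5a2, was higher (2.08, adjusted p = 0.0135, or 0.0888 and 0.113 without C129 replicate 1 and Pali wild type replicate 2). That is 22.7% called, beside 15.9% of all autosomal genes, with a median of -0.21. The collagen Col3a1 (1.28, adjusted p = 0.113) and the fibronectin Fn1 (-0.07, adjusted p = 0.922) were not called, nor were the defining collagen markers of fibroblasts. Col1a1 had 14.8 and 21.4 in C129 and 33.5 and 31.8 in Pali wild type (adjusted p = 0.351) and Col1a2 had 49.3 and 69.2 against 65.3 and 76.8 (adjusted p = 0.825).

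Promoters were read for the contractile genes because several were lower together. RefSeq's table on GRCm38.p6 holds a window of 250 bases before to 50 bases after the start for 3 of these 4 genes, Acta2, Cnn1 and Myl9. The window of Myl9 (chr2:156775214-156775513, plus strand) holds the CArG box, the site class of serum response factor, ending 151 bases before the start and given in capitals here.
Myl9: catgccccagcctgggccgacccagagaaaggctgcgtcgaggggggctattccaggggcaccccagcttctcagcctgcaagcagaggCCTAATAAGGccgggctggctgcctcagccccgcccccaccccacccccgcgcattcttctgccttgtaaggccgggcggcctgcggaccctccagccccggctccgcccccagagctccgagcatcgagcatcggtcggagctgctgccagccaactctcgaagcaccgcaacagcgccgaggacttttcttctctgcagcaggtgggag
The box reads the same class on both strands. It was found in 1 of the 3 windows, and in 1.63% of the 32851 windows of the table. A match is a description of letters and says nothing of the factor.

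The adhesion and endoderm lists had few calls. In the cadherin and EMT (epithelial to mesenchymal transition) list 3 of 23 genes were lower and none higher, or 13% called, and in the visceral endoderm and yolk sac list 10.3% were called, both under the 15.9% of all autosomal genes. Of the former, Tgfb2, a TGF-beta ligand, passed (-2.95, adjusted p = 0.0189), but not without C129 replicate 1 (adjusted p = 0.247) or either Pali wild type library (0.0863 and 0.0776). The fibronectin receptor chains Itga5 (-0.68, adjusted p = 0.00278) and Itgb1 (-0.52, adjusted p = 0.00393) were lower, with Itga5 at 586 and 480 normalised counts in C129 and 897 and 809 in Pali wild type. Lrp2, the endocytic receptor megalin of visceral endoderm and neural epithelium, had 8032 and 8118 against 30302 and 25990 (-1.80, SE 0.20, adjusted p = 1.2e-05). Sparc, a matrix protein of parietal endoderm, had 1216 and 1659 against 2832 and 3686 (-1.18, adjusted p = 0.000122). Both were higher in C129 at day 8, Lrp2 by 0.71 and Sparc by 0.81. In the visceral endoderm and yolk sac list 3 of 29 genes were lower, Lrp2, Sparc and Apoa2, and the median was -0.89. That median turned to 0.35 without Pali wild type replicate 2, the library in which Afp, Ttr and Apoa1 were high, and without Pali wild type replicate 1 the lower calls numbered 5. Afp had 8.62 and 7.54 in C129 and 7.25 and 92.2 in Pali wild type and was not called.

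In the glycolysis and hypoxia list 7 of 34 genes were lower in C129 and 2 higher, or 26.5% called beside 15.9% of all autosomal genes. The median was -0.09 and 16 of the 34 differences were positive. Slc2a1 (chromosome 4, 119108711 to 119137983, plus strand), the general glucose transporter, had 7767 and 9246 normalised counts in C129 and 26321 and 26839 in Pali wild type (-1.65, SE 0.25, limma, adjusted p = 0.000286). Slc2a3, a second transporter, had 23306 and 19809 against 35004 and 42912 (-0.85, adjusted p = 0.00403, or 0.0523 without Pali wild type replicate 2). Hk2, the hexokinase that phosphorylates glucose on entry, had 1216 and 1929 against 5298 and 4411 (-1.66, adjusted p = 4.75e-05). Slc2a1 did not differ detectably at day 0 (-0.34) or day 8 (-0.16), whereas Hk2 was lower at day 0 (-1.96) and day 8 (-0.92) as well. Hk2 lies in the chromosome 6 block described below, as does Kdm3a, another of the 7 lower genes. The duplicates of Kdm3a were uneven, with 383 and 65.4 against 799 and 398 (-1.79). The higher members were Pdk1, the kinase that limits pyruvate entry to the mitochondrion (2124 and 1972 against 1187 and 1303, 0.72), and Egln3, a prolyl hydroxylase (664 and 518 against 317 and 247, 1.06). Neither passed without C129 replicate 1 (adjusted p = 0.0865 and 0.173), nor Pdk1 without Pali wild type replicate 1 (0.0809) and Egln3 without replicate 2 (0.142). Without C129 replicate 1 or Pali wild type replicate 1 the lower calls numbered 4, and without Pali wild type replicate 2 they numbered 3.

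Most ribosomal protein genes were higher in C129 by a small amount. Of 54 tested, 40 were higher, none was lower and 14 were not called, or 74.1% called beside 15.9% of all autosomal genes, and their median was 0.45 beside -0.003 over all autosomal genes. The called genes ranged from 0.26 to 0.83. Those not called included Rpl34 (-0.17, adjusted p = 0.255) and Rplp2, which had 236 and 313 against 0 and 68.1 (4.02, adjusted p = 0.316). Relative to the Pali wild type mean, the median over the 54 genes was 0.56 in C129 replicate 1 and 0.33 in replicate 2, and the 2 groups did not overlap for 49 of them. Rpl13, a protein of the large subunit, had 49375 and 41603 normalised counts in C129 and 28313 and 29639 in Pali wild type (0.65, SE 0.07, adjusted p = 6.1e-06). Rps18, of the small subunit, had 23331 and 19475 against 12779 and 13234 (0.71, adjusted p = 2.35e-05). The median stayed at 0.45 with TMM rescaling and 0.46 with upper-quartile rescaling, and without C129 replicate 1 the count was 24. The list median was 0.22 at day 0 and 0.04 at day 8. Ribosomal protein genes have many processed copies, so how reads were divided among them is uncertain.

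Imprinted genes, which are expressed from 1 parental copy and are known to drift in cultured stem cells, held some of the largest differences. Of 39 tested, 10 were higher and 4 lower, or 35.9% called beside 15.9% of all autosomal genes. Grb10 (chromosome 11, 11930508 to 12038683, minus strand), a growth-restraining adaptor of the insulin receptor, had 161 and 77.2 normalised counts in C129 and 5637 and 6636 in Pali wild type (-5.72, SE 0.32, limma, adjusted p = 7.21e-09). It was lower in C129 at day 0 (862 and 841 against 4252 and 7108) and at day 8 (193 and 91.5 against 6358 and 6271). In the other lines at day 4 Grb10 had 174 and 123 in the Aebp2 gene trap, 6649 and 6251 in the Pali1 knockout and 9233 and 9832 in the double knockout, so the gene trap lay with C129 and the knockouts at or above Pali wild type. H19 (chromosome 7, 142575529 to 142578143, minus strand), a non-coding RNA made from the maternal copy, had 1969 and 1862 in C129 and 130 and 199 in Pali wild type (3.54, SE 0.50, adjusted p = 0.000157), and was higher at each day. For H19 the gene trap, at 190 and 86.6, lay with Pali wild type. Igf2, the growth factor beside H19 made from the paternal copy, had 118 and 108 against 291 and 352 (-1.47, adjusted p = 0.0108), missed the threshold without either C129 library (adjusted p = 0.0562 and 0.056) or Pali wild type replicate 2 (0.0755), and was higher in C129 at day 0 (1.36). Cdkn1c, a cell cycle inhibitor, had 212 and 92.1 against 1.80 and 1.10 (4.73, adjusted p = 0.00838, or 0.0902 without C129 replicate 1), with 94.2 and 11.4 in the 2 libraries of the Pali1 knockout. Mest, made from the paternal copy, had 262 and 1247 against 2845 and 2994 (-2.34, adjusted p = 0.0179) and lies in the chromosome 6 block. Impact (0.99), Inpp5f (0.49) and H19 were the 3 higher members with the lowest adjusted p. Leaving out any 1 library brought the higher calls to between 4 and 5 and the lower calls to between 2 and 4.

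RNA of 2-cell-like genes was high in C129. These genes mark the state that rare stem cells share with the embryo at genome activation, and the Zscan4 family among them acts in telomere maintenance. The 5 Zscan4 genes summed to 2554 and 1117 normalised counts in C129 and to 3.63 and 0 in Pali wild type. Zscan4b had 361 and 175 against 3.63 and 0 (5.53, SE 0.66, limma, adjusted p = 2.89e-05), and Zscan4a, Zscan4c, Zscan4d and Zscan4f had 0 in each of the Pali wild type libraries. Zscan4c had 881 and 421 and Zscan4f 814 and 311 in C129. The sum in C129 was far above that at day 0 in Pali wild type, 104 and 59.8, and far below that at day 0 in C129, 39954 and 28811. At day 4 it was 166 and 163 in the Pali1 knockout, 255 and 146 in the double knockout and 187 and 357 in the gene trap, so Pali wild type was the lowest line and C129 the highest. Of 18 genes in the list 12 were higher and none lower, or 66.7% called beside 15.9% of all autosomal genes. Members at 0 in both Pali wild type libraries could not have been called lower, so their direction tests nothing. Spz1, at 6.16 and 5.03 in C129 and 0 in Pali wild type, was tested only because libraries of other groups reached 10. The median of 1.74 depends on the added constant, since 9 called members were listed at 0 throughout Pali wild type, and was 3.15 with a constant of 1 and 0.85 with 16. Without C129 replicate 1, the higher of the 2 libraries, 7 were called.

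The Zscan4 genes are near-identical copies on chromosome 7, so reads may be divided among them arbitrarily and the sum is the safer value. The promoter windows of Zscan4b (chr7:10905001-10905300, minus strand) and Zscan4f (chr7:11397665-11397964, plus strand) from RefSeq on GRCm38.p6 are set side by side. Both are written 5′ to 3′, with capitals at the positions that differ.
Zscan4b: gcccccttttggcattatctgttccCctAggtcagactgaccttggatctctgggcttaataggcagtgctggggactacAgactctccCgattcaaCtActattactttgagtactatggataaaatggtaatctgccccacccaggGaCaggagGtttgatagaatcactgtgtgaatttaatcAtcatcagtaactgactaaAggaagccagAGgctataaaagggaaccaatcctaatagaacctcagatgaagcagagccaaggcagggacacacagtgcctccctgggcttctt
Zscan4f: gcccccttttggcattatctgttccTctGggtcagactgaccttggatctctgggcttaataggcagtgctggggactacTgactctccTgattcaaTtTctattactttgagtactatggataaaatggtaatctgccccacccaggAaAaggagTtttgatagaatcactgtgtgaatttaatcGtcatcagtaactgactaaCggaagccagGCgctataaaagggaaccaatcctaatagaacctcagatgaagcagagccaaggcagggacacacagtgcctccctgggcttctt
Over 300 bases the windows differed at 13, so 95.7% were identical. This pair was chosen after values were seen, because the windows align without a gap, so its identity does not describe the other copies. The windows reach from 250 bases before to 50 bases after the start, so they say little of the transcribed sequence.

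The germ cell list had 16% of its genes called, near the 15.9% of all autosomal genes. Sycp3, a protein of the meiotic chromosome axis, was at 1400 and 1250 normalised counts in C129 and 251 and 304 in Pali wild type (2.24, SE 0.32, limma, adjusted p = 0.000157). The gene trap had 1692 and 1605 at day 4. In that list 4 of 25 genes were higher, Sycp3, Dnd1, Slc25a31 and Mael, and none lower, with a median of 0.09, and with 1 higher without C129 replicate 1 and 2 without Pali wild type replicate 2. Among p53 targets 4 of 23 were lower and 1 higher (21.7% called), and without C129 replicate 1 the lower calls numbered 2. Pmaip1, the death protein NOXA, had 392 and 643 in C129 and 2282 and 2841 in Pali wild type (-2.33, adjusted p = 4.38e-05), and the death receptor Tnfrsf10b had 722 and 839 against 1736 and 1374 (-0.99, adjusted p = 0.002). Trp53 itself was higher, with 4914 and 3843 against 2964 and 2728 (0.61, adjusted p = 0.00479, or 0.103 without C129 replicate 1). Of 29 interferon and antigen presentation genes 2 were higher and 1 lower (10.3% called), of 23 cholesterol synthesis genes 1 was higher (4.35%), and of 22 one-carbon and serine genes 4 were higher and 1 lower (22.7%). No interferon or cholesterol gene and 1 one-carbon gene was called higher when C129 replicate 1 was left out. Of 20 subunits of Polycomb complex PRC1, which compacts silent chromatin, 4 were lower and 1 higher (25% called), with a median of -0.27, and without C129 replicate 1 or Pali wild type replicate 2 the lower count was 1, or 2 without Pali wild type replicate 1. Pcgf3, a variant subunit, had 1404 and 1250 against 1935 and 1730 (-0.46, adjusted p = 0.00112). In the trophoblast list Plet1 was higher and Krt8 lower, 2 of 20, and Plet1 missed the threshold without C129 replicate 2 or Pali wild type replicate 2 (adjusted p = 0.105 and 0.114).

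**Figure D3:**
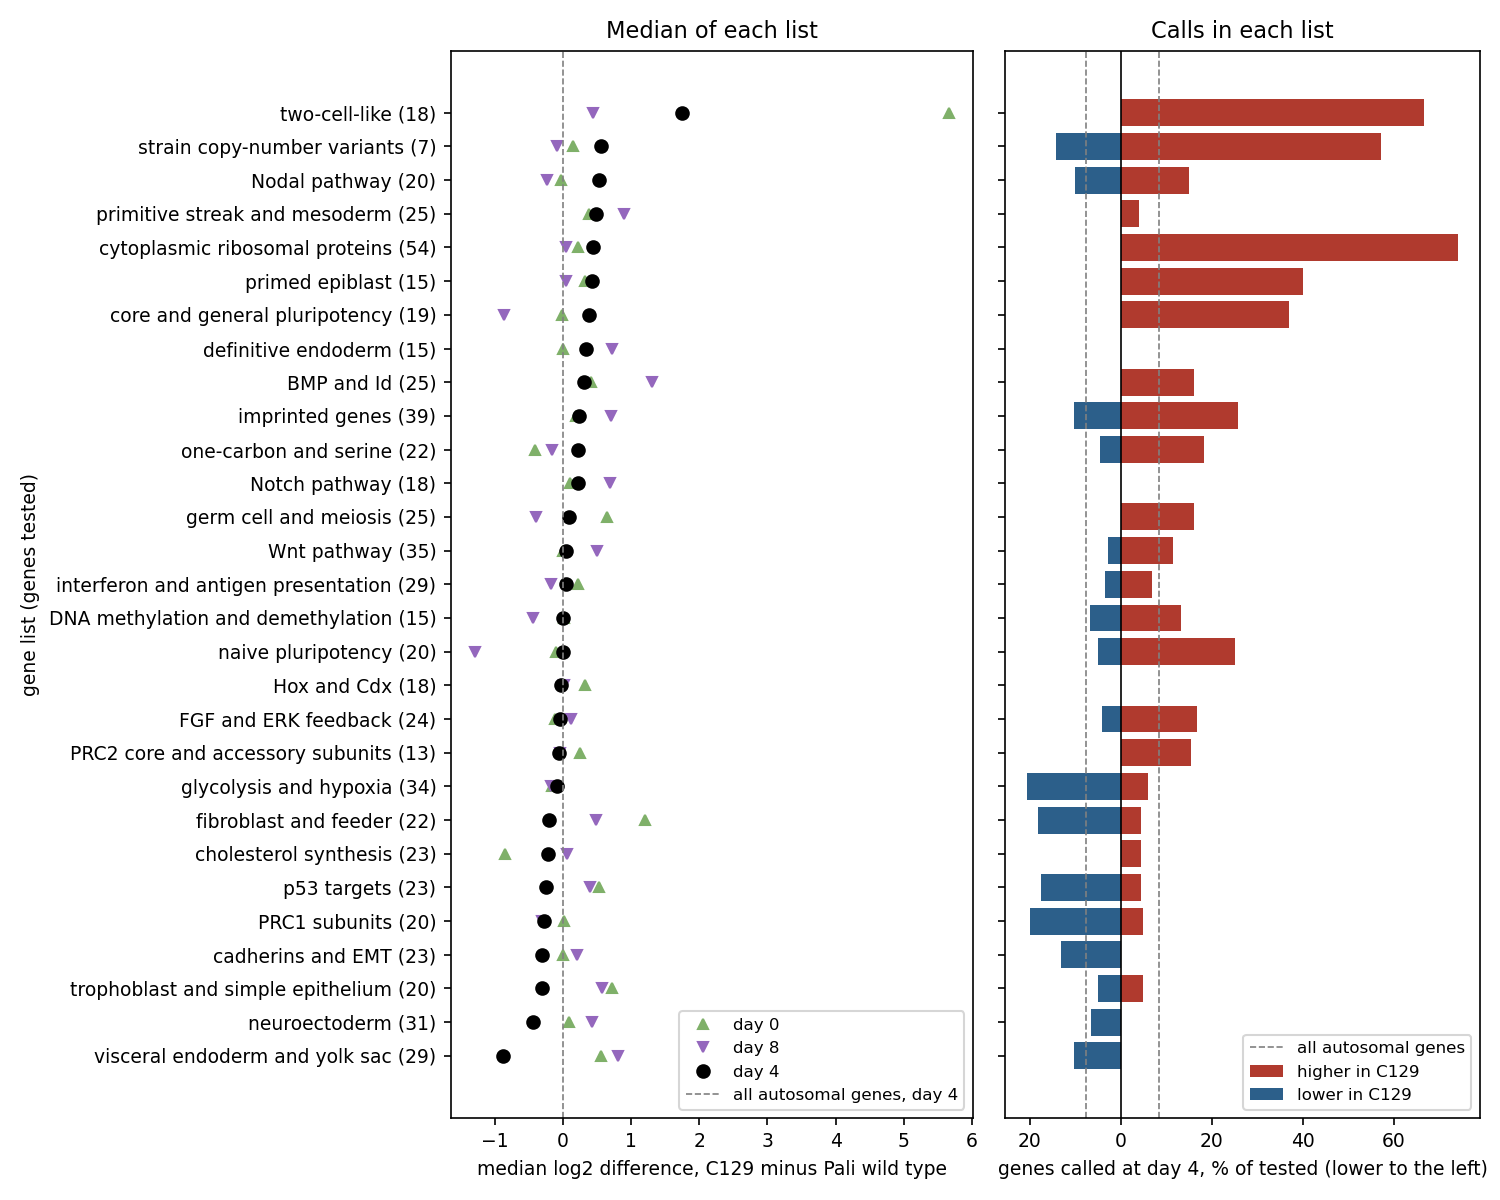
On the left, the median log2 difference (C129 minus Pali wild type) of 29 gene lists at day 0 (triangles up), day 4 (circles) and day 8 (triangles down), and on the right the percentage of tested genes called higher (red) or lower (blue) in C129 at day 4, with dashed lines for all autosomal genes (8.36% and 7.59%). Ribosomal proteins have 40 of 54 genes higher, and the core and naive pluripotency lists have medians of 0.39 and -0.005 at day 4 and of -0.86 and -1.29 at day 8.

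Some genes separated the lines at every day. Hist1h2bm (chromosome 13, 21722044 to 21722567, plus strand), a histone H2B gene, had 14.8 and 20.1 normalised counts in C129 and 1311 and 1921 in Pali wild type (-6.22, SE 0.28, limma, adjusted p = 1.85e-10), with -6.09 at day 0 and -6.98 at day 8. Histone genes are near-identical copies, so this value may share reads with others. Olig1 (chromosome 16, 91269772 to 91271933, plus strand), a factor of the oligodendrocyte lineage, had 1.23 and 2.51 against 339 and 471 (-6.11, SE 0.26, adjusted p = 1.38e-10), and its neighbour Olig2 (chromosome 16, 91225457 to 91228677, plus strand) had 1.23 and 0 against 184 and 222. Eif3j1, a translation factor subunit with a near-identical copy, had 0 and 22.6 against 1763 and 1876 (-7.46, adjusted p = 6.52e-06). Hist1h2bm, Olig1, Olig2 and Eif3j1 were at or near 0 in C129 and well above it in Pali wild type. Among the other lines at day 4, Hist1h2bm had 15.2 and 13.4 in the gene trap, 1536 and 1777 in the Pali1 knockout and 1802 and 1759 in the double knockout. Olig1 had 5.08 and 3.65 in the gene trap, 347 and 386 in the Pali1 knockout and 87.5 and 120 in the double knockout. Eif3j1 was listed at 0 in both gene trap libraries and had 1598 and 1823 in the Pali1 knockout. For Hist1h2bm, Olig1 and Eif3j1 the gene trap had values near those of C129 and the Pali1 knockout values near those of Pali wild type, while Olig1 in the double knockout lay between the wild types. Olig1 and Olig2 are the 2 called genes of the 31 in the neuroectoderm list, where none was higher and the median was -0.43. The 6.45% called there is under the 15.9% of all autosomal genes.

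H19, Cyp2j6 and Ust led the genes higher in C129 at all 3 days that had a mean of at least 50 normalised counts at each day and no group wholly at 0. Cyp2j6, a cytochrome P450, had 264 and 272 against 59.8 and 72.4 (1.96, limma, adjusted p = 6.29e-05). Ust, a sulfotransferase of chondroitin and dermatan sulfate, had 172 and 143 against 18.1 and 64.8 (2.05, adjusted p = 0.00236). The call of Ust did not hold without Pali wild type replicate 1. Those limits left out Zscan4a, Zscan4b, Zscan4c and Zscan4f. Zscan4c, for example, differed by 8.52 at day 0, 7.26 at day 4 and 2.63 at day 8, and all of these Zscan4 genes were called higher at all 3 days. Apoa2, an apolipoprotein, was lower at all 3, with 9.33 and 12.4 against 114 and 93.8 at day 4 (-2.86, adjusted p = 4.31e-07). Of 7 tested genes that are known to vary in copy number or to be deleted among inbred mouse strains, 4 were higher and 1 lower. That is 71.4% called, beside 15.9% of all autosomal genes. Of the higher genes, Glo1, Btbd9 and Dnah8 all lie on chromosome 17, and Nnt lies on chromosome 13. At day 0 only 1 of the 7 was higher and 1 lower, and at day 8 1 was higher and 2 lower. At these days Nnt (-0.32 and -0.20) and Btbd9 (0.34 and -0.07) were not called. Glo1 (chromosome 17, 30584936 to 30626871, minus strand), the enzyme that detoxifies methylglyoxal, had 7291 and 7228 in C129 and 2744 and 2983 in Pali wild type (1.34, SE 0.08, adjusted p = 2.11e-08), with 6845 and 7384 in the gene trap. Its values were even within lines and higher in C129 at day 0 (1.05) and day 8 (0.80). Its neighbour Dnah8, a dynein, was higher at day 4 (1.02), not called at day 0 (0.05) and lower at day 8 (-2.26), and missed the threshold without C129 replicate 1 (adjusted p = 0.0889) or Pali wild type replicate 2 (0.0958). Without C129 replicate 1, or without Pali wild type replicate 2, only 1 of the 7 was higher at the threshold. Copy number was not measured.

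A stretch of chromosome 6 was lower in C129 as a block. It was found after values were seen, as the longest run of 5 Mb bins with at least 5 genes and a median below -0.4, and spans chr6:25000001-85000000. The 178 genes there with a mean of at least 50 normalised counts had a median of -0.74, with quartiles of -1.02 and -0.35, and 22 of them had a positive difference. Of these genes 87 were called lower and 2 higher, 50% in all, beside 20% of the 300 other genes of chromosome 6, whose median was -0.02, and 19.5% of the 10019 autosomal genes outside the block. The limits were chosen on these values, so the counts describe the block and test nothing. Of 233 autosomal bins of 10 Mb with at least 10 genes, 6 had a median beyond 0.5 in size, and 4 of those lay on chromosome 6. Another, chr10:100000001-110000000 with 13 genes, had a median of 0.84, with 0.69 at day 0 and 0.71 at day 8. The last, chr2:50000001-60000000 with 15 genes, had 0.64, with 0.55 at day 0 and -0.06 at day 8.

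At day 0 and day 8, in libraries that did not set the limits, the block medians were -0.73 and -0.33. Within each day, relative to the Pali wild type mean, the C129 medians were -0.89 and -0.60 at day 4, -0.78 and -0.60 at day 0 and -0.52 and -0.10 at day 8. Day 8 replicate 2 of C129 differed from its duplicate, with a median of 0.40 on chromosome 11, where replicate 1 had 0.07. The gene trap was also high on chromosome 11, with 0.39 and 0.26 at day 8 and 0.20 and 0.13 at day 4. At day 4 C129 replicate 2 had 0.10 there and replicate 1 had 0.0006. Over the block genes at day 4, the double knockout stayed between 0.03 and 0.06 and the gene trap between -0.07 and 0.02. The Pali1 knockout lay between, at -0.31 and -0.37 at day 4. Over a narrower window of 30 to 75 Mb with 136 genes, looked at after values were seen, the Pali1 knockout had -0.66 and -0.65 and C129 -0.90 and -0.61. Copy number was not measured.

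**Figure D4:**
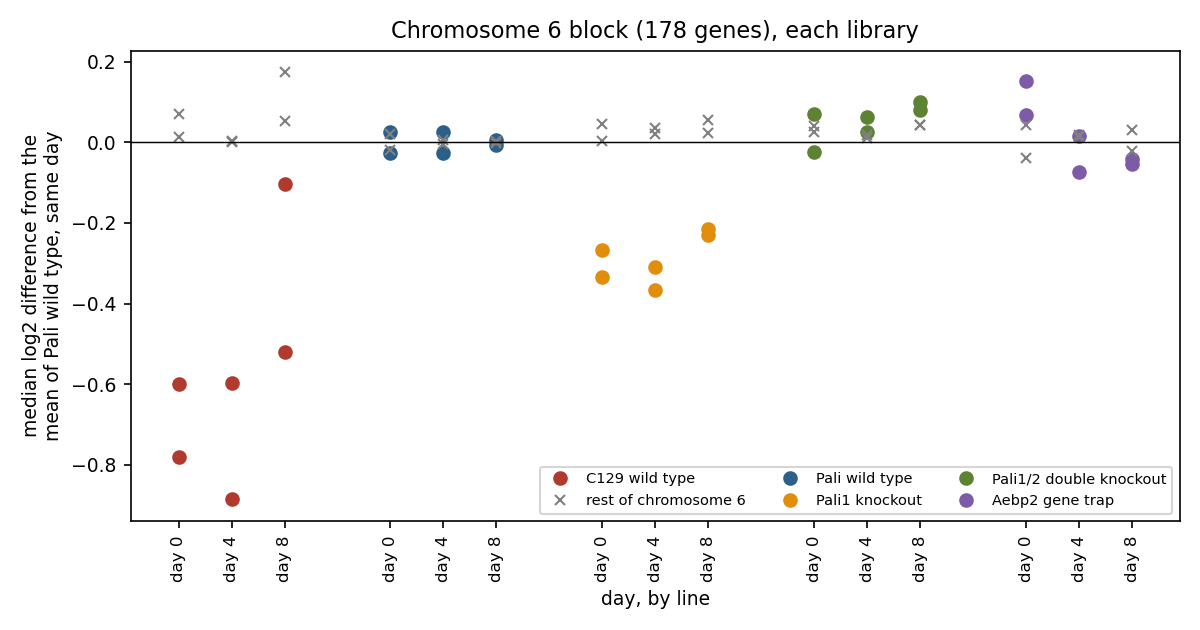
Median log2 difference of the 178 block genes (coloured circles, by line) and of the 300 other genes of chromosome 6 (grey crosses) in each of the 30 libraries, relative to the mean of the 2 Pali wild type libraries of the same day. All 6 C129 libraries lie below 0, from -0.89 to -0.10, the Pali1 knockout libraries lie between -0.37 and -0.22, and the rest of chromosome 6 stays between -0.04 and 0.17.

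Genes of many roles shared the shift. Serbp1, an mRNA-binding protein, had 15467 and 17552 normalised counts in C129 and 25288 and 26199 in Pali wild type (-0.64, SE 0.08, limma, adjusted p = 4.58e-05), with -0.64 at day 0 and -0.63 at day 8. Cbx3, a heterochromatin protein, had 3571 and 4155 against 7013 and 8317 (-0.99, adjusted p = 0.000649). Fkbp9, a folding enzyme of the endoplasmic reticulum, had 2341 and 2680 against 5322 and 5901 (-1.16, adjusted p = 1.21e-05). The exception among the 8 most abundant called genes was Mat2a, the enzyme that makes S-adenosylmethionine, at 12496 and 15166 against 6981 and 7889 (0.89, adjusted p = 0.0408). Members of the gene lists in the block included Hk2, Kdm3a, Mest and Pcgf1, which were called lower. Some other members did not share the shift. Tcf7l1 differed by 0.004, Tet3 and Ezh2 showed no difference, and Stk31 (4.55) and Mthfd2 (1.12) were positive. None of these was called. Without the block's genes 2310 autosomal genes were called, 1259 higher and 1051 lower.

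Large differences outside the lists were of mixed function. Abcb1a, a drug efflux pump, had 304 and 201 normalised counts in C129 and 23.6 and 4.39 in Pali wild type (4.05, SE 0.72, limma, adjusted p = 0.00106). Hhip, which binds and restrains Hedgehog ligands, had 366 and 268 against 28.1 and 31.8 (3.22, adjusted p = 0.000203). Neither was called higher at day 8, and Abcb1a was lower there (-3.28, adjusted p = 0.00412). Zfp951, a zinc finger gene, had 1113 and 753 against 74.3 and 40.6 (3.96, adjusted p = 2.95e-05) and was higher at day 0 as well (3.74). Of lower genes, Ints11, the nuclease subunit of the Integrator complex, had 50.5 and 15.1 against 195 and 357 (-3.05, adjusted p = 0.00217) and was lower at each day. Rcn3 (1.23 and 121 against 945 and 821), Hyou1 (75.1 and 13.8 against 1452 and 428) and Ttc3 (25.9 and 165 against 725 and 1890) were lower with duplicates that differed several fold in at least 1 line. Hyou1 missed the threshold without Pali wild type replicate 1 (adjusted p = 0.0545), and Ttc3 without C129 replicate 1 (0.34) or either Pali wild type library (0.0864 and 0.218). Utp4, a ribosome biogenesis factor, had 266 and 172 against 1.81 and 3.29 (5.07, adjusted p = 0.0271), but no 1 library could be left out without losing the call (adjusted p from 0.0711 to 0.149), and it had 227 and 1.22 in the 2 libraries of the gene trap.

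Of genes listed at 0 in both libraries of 1 line and at 100 or more in both of the other, 3 were at 0 in C129 and 12 in Pali wild type. These lists were made after values were seen, and exact zeros can be failed estimates. Malt1, a signalling protease of lymphocytes, was at 0 in C129 and at 211 and 123 in Pali wild type, and was at 0 in C129 at day 0 and day 8 too. Adcy6, by contrast, was at 0 in all 4 wild type libraries of day 0. Of the 12, Zscan4a, Zscan4c and Zscan4f belong to the 2-cell-like list, and Nlrp9b, an oocyte gene, had 121 and 141 in C129.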

How the data were processed

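The deposited table gives a signal the authors call normalised counts, at or above 0 and often not whole. Libraries came from total RNA by a stranded Ribo-Zero kit, per the labels' protocols. In the submitters' processing notes mm10, DESeq2, HISAT2 2.0.5 and kallisto 0.43.1 appear, without roles. Strand use in counting is not stated, so overlapping antisense genes are uncertain. Whole reads were not recovered (81.9 to 86.9% of low values were whole multiples of 1 read within 0.001), so no count model was run.

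Columns were matched to groups by title, with "WT" read as Pali wild type. GENCODE M21 (GRCm38, equal to mm10) placed the symbols, with 25 of 20563 unmatched. The test took 15712 genes reaching 10 in 2 or more of the 30 libraries. A mean for each of 15 groups was fitted to log2(value + 4) with limma 3.58.1 in R 4.3.3, with 15 residual degrees of freedom, eBayes moderation (trend, robust) and Benjamini-Hochberg adjustment over all genes tested. All adjusted p-values of genes are from this test. A simulation over 15712 genes was made for this comparison. In it the fit called 63 of 100 genes changed 2-fold, 85 of 100 changed 4-fold and 8 that were unchanged. The changed genes were a far smaller share than the 15.9% called among autosomal genes, so these rates need not hold for the data. Recovery was not split by expression level, so it does not describe low genes.

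Members, the 29 gene lists and the tests were chosen with earlier results of these data known. Lists have no test. Named genes are the 12 largest called differences each way (mean at least 50, no overlap, no value of 0; 1 of them is not reported here), up to 3 called members of each list each way by adjusted p, 17 stage markers, 6 Polycomb loci, and 3 genes each way called at all 3 days, ranked by the smallest of their 3 differences. The genes called at all 3 days also needed a mean of at least 50 at each day and no group wholly at 0. Other genes (Cnn1, Mest, Mael, further list members, the remaining Zscan4 genes, markers, genes at 0 in 1 line, chromosome 6 block genes) were named after their values were seen. Same-numbered duplicates did not pair (deviations correlated at 0.0552 over 10421 genes). Alternatives were the added constant, the filter, TMM and upper-quartile rescaling (factors computed from their formulas), fewer libraries, each duplicate left out, a replicate block, moderation, discordant genes, a fold minimum and adjustment over autosomal genes.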

Additional observations from a re-analysis of the deposited data

Results flagged for a closer look

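The difference between the lines itself differed between days, by an interaction term in limma, for many genes. Of the 123 named genes, 43 had a line difference at day 4 that differed from that at day 0, and 75 one that differed from that at day 8, at an adjusted p under 0.05. Over all autosomal genes the shares were 9.04% and 17.3%, and many named genes were chosen for their day 4 difference, so their counts are raised by that choice. Values are given here for the 40 genes that are stage markers or have large differences, and no cause was tested.

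Against day 0, the day 4 difference was more negative for several genes. The day 4 minus day 0 value was -6.33 for Thbs1, -5.48 for Tagln, -4.13 for Acta2, -3.90 for Cyr61, -3.68 for Krt8, -3.04 for Grb10 and -2.51 for Fam131b. It was positive for Utp4 (7.61), Fgf8 (3.77), Hhip (2.37), Lrmp (2.19) and Sox2 (0.55). Thbs1 and Krt8 changed sign with a call on each side, and the duplicates of Utp4 disagree in other groups.

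Against day 8, Thbs1, Cyr61, Tagln, Acta2 and Krt8 were again more negative at day 4, with -4.85 for Thbs1, -4.37 for Cyr61, -4.22 for Tagln, -3.39 for Acta2 and -2.93 for Krt8. Sox1 had -3.63 and Fam131b -2.92. Stem cell genes were more positive at day 4 than at day 8, with 2.59 for Pou5f1, 2.26 for Zfp42, 1.96 for Esrrb, 1.10 for Sox2 and 0.84 for Nanog. Of the genes higher in C129 at day 4, the value was 7.33 for Abcb1a, 5.33 for Capn3, 3.73 for Lrmp, 3.62 for Rpl10l, 3.46 for Myh13, 2.95 for Zfp951, 2.87 for Fgf8 and 2.81 for Hhip. The day 8 side of these values includes C129 replicate 2, which differs from replicate 1 on chromosome 11. Fewer genes passed this interaction without it.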

How the results depend on the processing

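With 2 libraries a line, calls rest on the spread shared across groups. Fitted on 4 libraries, 0 genes were called at day 4 (0 higher, 0 lower; 3307 at an unadjusted p under 0.05). On the 12 wild type libraries 1378 were called (755 higher, 623 lower) at day 4, 1611 at day 8, 470 and 1452 for the interactions with day 0 and day 8, and 487 and 208 shared with those days. Leaving out 1 library gave 1098 to 2010 calls (560 to 1024 higher, 538 to 986 lower). Asking also for a 2-fold difference gave 961 (531 and 430). Without C129 day 8 replicate 2, left out after its values were seen, day 8 had 1370 calls and its interaction 1672. With the replicate block 2425 genes were called at day 4 (1260 and 1165), and the numbers do not pair the libraries. TMM rescaling moved the day 0 split from 1801 and 1394 to 1643 and 1585. Of 102 called named genes, 41 kept their call in every setting but the 4-library fit, and 39 lost it without C129 replicate 1. With 1 library left out, uncalled genes changed sign, with ranges of -0.16 to 0.13 for Nanog, -0.13 to 0.34 for Esrrb, -1.46 to 1.63 for Gata6, -0.26 to 2.55 for Sox17, -0.14 to 0.10 for Eed, -1.003 to 0.041 for Lcor, -0.24 to 0.14 for Suz12 and -2.995 to 0.10 for Afp. The causes were not tested. The chromosome 6 median was -0.74 in both windows. Counting and library depth limit genes near 0, for which exact zeros can be failed estimates.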
